A study of Homo sapiens with 2 samples.

Results

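The genes described here are 8 members of the cholesterol synthesis pathway and its control: HMGCS1, IDI1, FDPS, FDFT1, SQLE, LSS, INSIG1 and SREBF2. They are taken as a list of names, drawn up with earlier results of these data known, and all 8 were found among the 36601 genes of the matrix. No lipoprotein receptor gene is among them, so they are called sterol synthesis genes below.

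Cells build cholesterol from acetyl-CoA through mevalonate, isoprenoid units, squalene and lanosterol. The transcription factor SREBP2, encoded by SREBF2, is held in the endoplasmic reticulum with its escort SCAP by INSIG proteins while sterols are plentiful. When sterols run low, SREBP2 travels to the Golgi, is cut by proteases and switches on most genes of the pathway, including INSIG1 itself. Interferons and inflammatory signals are known to act on this pathway in macrophages, and tumour cells draw on it for membrane growth and for lipid anchors on signalling proteins.

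The data came from OVCAR5, an established human ovarian carcinoma line with an interferon gamma (IFN-gamma) sensing reporter. Tumours grown in NSG-b2m-/- mice, an immunodeficient strain that also lacks beta-2-microglobulin, were digested to single cells and cultured for 6 h. The labels name a pool of 5 tumours and list 15 entries: 5 unstimulated, 5 with 10 ng/ml of TNFa (tumour necrosis factor, written TNF below) and 5 with 100 ng/ml of IFNy plus 10 ng/ml of TNFa. Every cell was sorted as CFP+, described in the labels as bystander tumour cells, and read in 1 pooled 10x Genomics 3' library with antibody hashtags. No label pairs a hashtag with a treatment.

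Of 5269 deposited barcodes, 3538 were kept as cells and 3144 (88.9%) carried 1 clear pair of hashtags. The pairs numbered 15, and each is treated as 1 hashed sample whose treatment is not known. Treatments were not inferred from expression, so no hashed samples were averaged, grouped into treatments or tested against each other. The hashed samples held 49 to 630 cells, 582102 to 7324691 UMIs (unique molecular identifiers, each marking 1 captured RNA molecule), and median mitochondrial shares of 12.2% to 14.7%. The epithelial marker EPCAM was at 4.19 UMIs per 10000 over the hashed samples. Summed marker lists ranged from 39.8 to 86.5 for epithelium, 0.326 to 0.611 for myeloid cells, 0.434 to 0.617 for endothelium and 0 to 0.0519 for fibroblasts. The markers CD3D, CD3E, CD2, NKG7 and GZMB of T or NK cells and KDR of endothelium had 0 counts, so their pooled levels can be at most 0.000783. The matrix lists human genes only, so mouse genes were not counted and the presence of host cells was not tested.

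Short stretches upstream of 6 of the members are printed here because SREBP2 is known to act beside the factor NF-Y at such promoters, and the printed bases show where the CCAAT letters that NF-Y binds lie. They come from RefSeq on GRCh38.p14, run 5' to 3' on the strand of the gene and lie wholly upstream of the gene's start in GENCODE 29. Further CCAAT letters in the searched windows of HMGCS1, IDI1 and FDPS reach or pass that start and are not printed. Capitals mark CCAAT or its reverse complement ATTGG, and in SREBF2 also the sterol regulatory element letters TCACNCCAC. FDFT1 and SQLE were not matched, because all windows on the chromosome that carries both were left out beforehand. Their upstream bases were therefore not searched, and nothing is known here of the letters in them.
HMGCS1, chr5:43313538-43313592, minus strand: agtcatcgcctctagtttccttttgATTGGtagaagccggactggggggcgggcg
IDI1, chr10:1049207-1049359, minus strand: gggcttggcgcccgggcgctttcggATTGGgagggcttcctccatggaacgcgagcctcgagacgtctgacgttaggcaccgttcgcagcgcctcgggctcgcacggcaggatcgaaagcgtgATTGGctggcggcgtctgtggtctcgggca
FDPS, chr1:155308665-155308719, plus strand: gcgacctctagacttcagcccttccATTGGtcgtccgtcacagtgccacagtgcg
LSS, chr21:46228895-46228949, minus strand: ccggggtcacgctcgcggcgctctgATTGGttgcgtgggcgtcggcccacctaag
INSIG1, chr7:155297683-155297737, plus strand: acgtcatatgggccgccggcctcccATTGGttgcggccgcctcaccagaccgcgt
SREBF2, chr22:41832947-41833028, plus strand: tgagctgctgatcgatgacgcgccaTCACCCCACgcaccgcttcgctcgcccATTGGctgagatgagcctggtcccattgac

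The 250 bases before each listed start were searched on both strands. CCAAT was present for 6 of 6 matched members and in 7 of their 9 windows, some of which overlap. It was in 32% of all 35116 windows of that length outside chromosome 8. Shares over all windows count windows, not genes. TCACNCCAC was found for 1 of the 6, SREBF2, beside 0.883% of all windows. The letters of the GC box, GGGCGG, were in all 9 windows of the members and in 42.6% of all windows, and can share bases with ATTGG. The IFN-gamma activated site letters TTCNNNGAA and the interferon response core (GAAA, any 2 bases, GAAA) were in none of the 9 windows, beside 6.57% and 3.02% of all windows. A match describes letters only, not a site bound in these cells.

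The summed level of the 8 genes ranged less than 2-fold between hashed samples. Levels are summed counts per 10000 UMIs, and their exact 95% Poisson intervals hold counting error alone. The sum was lowest in HTO2+HTO7 at 2.43 (2.28 to 2.58), had a median of 2.99 and was highest in HTO2+HTO10 at 3.97 (3.69 to 4.27). The ratio of highest to lowest was 1.64 (exact interval 1.49 to 1.80), and without HTO2+HTO10 it was 1.45. Single members differed more, and not in the same samples. A gene was called spanning when its highest hashed sample was at least 2 times its lowest and the lower bound of that ratio was at least 1.5, among genes with a pooled level of at least 0.05.

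All 8 members passed that level, and 4 met the rule: INSIG1, SQLE, FDFT1 and IDI1. Over all 9402 genes tested, 29.5% met it. The stricter rule, at least 4 times with a lower bound of at least 2, was met by INSIG1 alone, beside 10.7% of all genes. Without the 4 hashed samples of fewest cells, INSIG1, SQLE and FDFT1 met the 2-fold rule beside 28.2% of all genes, and INSIG1 the 4-fold rule beside 8.81%. The median ratio of the 8 was 4.06 and that of all tested genes 2.37. This ratio is larger for sparse genes by counting error. Its median was 3.83 for the 1911 genes at 0.05 to 0.1, the levels of LSS and SREBF2. It was 2.71 for the 3269 genes at 0.1 to 0.3 and 1.57 for the 1045 genes at 1 to 3. Taking the highest and the lowest of 15 samples picks extremes, and no treatment replicate stands behind the ratio.

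**Figure D1:**
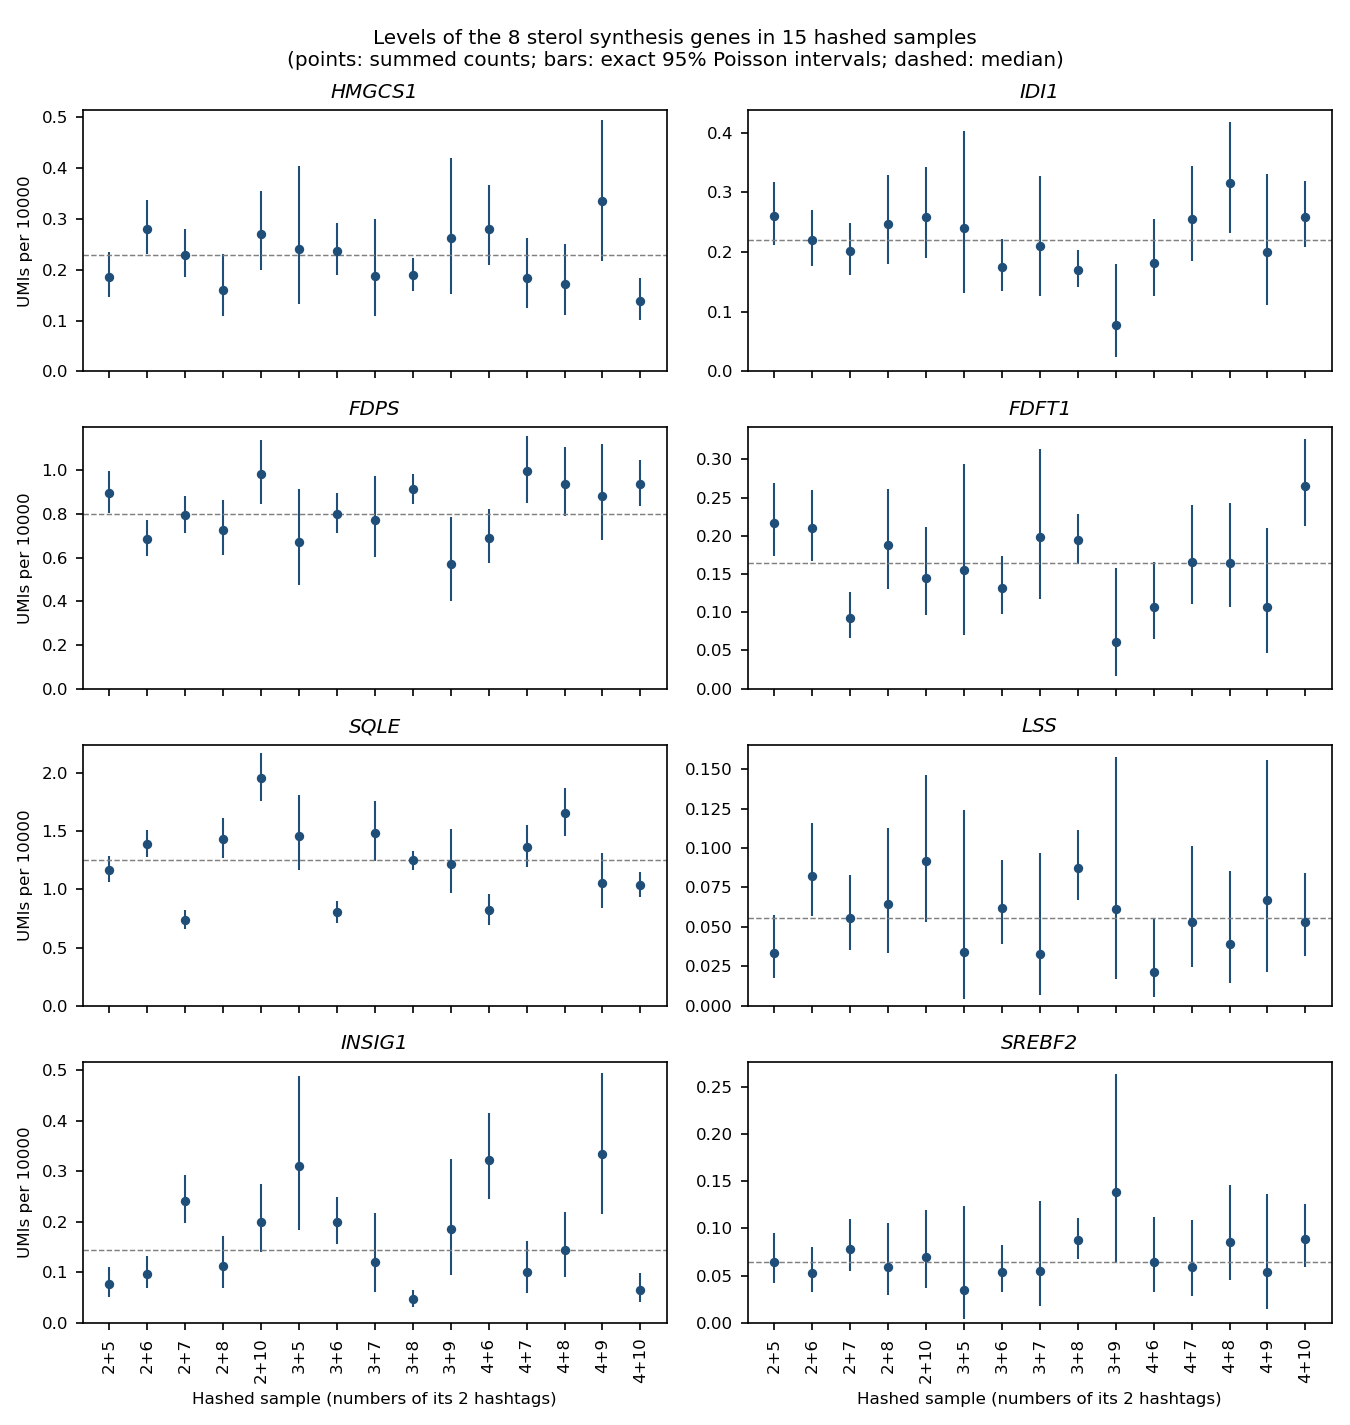
Level of each of the 8 genes (vertical axes, UMIs per 10000, each panel on its own scale from 0) in the 15 hashed samples (horizontal axis, the numbers of their hashtags); points are summed counts, bars exact 95% Poisson intervals and dashed lines the median of the samples. SQLE is lowest in 2+7, 3+6 and 4+6 and highest in 2+10, and INSIG1 is lowest in 3+8 at 0.0464 and highest in 4+9 at 0.334.

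HMGCS1 encodes the cytosolic synthase that makes HMG-CoA, the entry to the mevalonate pathway. It was lowest at 0.139 (0.102 to 0.184) in HTO4+HTO10, had a median of 0.229 and was highest at 0.334 (0.216 to 0.493) in HTO4+HTO9. The ratio was 2.41 (1.42 to 3.99) and missed the rule by its lower bound. With hashtag pairs kept only where the second hashtag had at least 10 times the third, the ratio was 2.60 and HMGCS1 met the rule. The next highest samples, HTO2+HTO6 at 0.280 and HTO4+HTO6 at 0.279, had intervals that overlapped the highest.

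IDI1, the isomerase of the 5-carbon isoprenoid units, was lowest at 0.0771 in HTO3+HTO9, had a median of 0.220 and reached 0.315 in HTO4+HTO8. The lowest value rested on 5 counts in 53 cells. Its ratio of 4.09 (1.64 to 13.2) was 1.85 without HTO3+HTO9, and the gene then missed the rule, as it also did without HTO4+HTO8 at a ratio of 3.38. It missed the rule too with no cell filter (2.31), without cells with a UMI of MKI67 or TOP2A (3.54) and with at most 10% mitochondrial UMIs (2.14). The other 14 hashed samples lay between 0.171 and 0.315. An antisense gene, IDI2-AS1, overlaps IDI1 and had 80 counts beside 826 for IDI1.

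FDPS joins isoprenoid units to farnesyl diphosphate, from which both sterols and protein lipid anchors are made. It differed least of the members in ratio, from 0.570 (0.402 to 0.786) in HTO3+HTO9 through a median of 0.802 to 0.996 (0.852 to 1.16) in HTO4+HTO7, or 1.75-fold (1.22 to 2.57). GENCODE 29 lists 8 pseudogenes named after FDPS, and reads may have been split or lost among them, so the values of FDPS are uncertain.

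FDFT1, squalene synthase, commits farnesyl diphosphate to sterols. Its 5 lowest hashed samples were HTO3+HTO9 at 0.0617 (4 counts), HTO2+HTO7 at 0.0926, HTO4+HTO9 at 0.107 (8 counts), HTO4+HTO6 at 0.107 and HTO3+HTO6 at 0.131. The other 10 ran from 0.145 in HTO2+HTO10 through 0.155 in HTO3+HTO5 and 0.164 in HTO4+HTO8 to 0.217 in HTO2+HTO5 and 0.265 (0.213 to 0.326) in HTO4+HTO10. The samples at the low end were also those with the highest summed level of an IFN-gamma response list of 18 genes, 195 to 295 in these 5 and 5.08 to 14.9 in the rest. The groups of values touched within error, since the interval in HTO3+HTO6 (0.0973 to 0.174) overlapped that in HTO2+HTO10 (0.0958 to 0.212).

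The ratio of highest to lowest FDFT1 was 4.31 (1.62 to 16.1). It was 2.87 without HTO3+HTO9, and the rule was still met. It was missed without HTO4+HTO10 at a ratio of 3.52, in cells with no UMI of the proliferation genes MKI67 or TOP2A at 3.78, and with no cell filter at 2.74. The same 5 hashed samples were lowest under these last 2 settings. With at most 10% mitochondrial UMIs, only 8 hashed samples were left and HTO2+HTO10 was lowest.

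Proliferation genes differed between the same hashed samples. A list of 10 G2/M genes was lowest in HTO3+HTO9 at 0.324, where FDFT1, IDI1 and FDPS were lowest too, and next lowest in HTO4+HTO6 at 1.58. It was highest in HTO4+HTO7 at 4.70, where FDPS was highest. It did not follow FDFT1 throughout, at 3.65 in HTO4+HTO9 and 1.61 in HTO3+HTO7, where FDFT1 was 0.107 and 0.198. A list of 10 S phase genes lay closer to FDFT1 at its low end. It was 0.925 in HTO3+HTO9, 1.14 in HTO4+HTO6, 1.36 in HTO2+HTO7, 1.58 in HTO3+HTO6 and 1.75 in HTO4+HTO9. Elsewhere it ran from 1.61 in HTO2+HTO6, where FDFT1 was 0.210, to 3.47 in HTO4+HTO7. The part of proliferation in the FDFT1 values was not tested. From cell to cell within hashed samples, after thinning to 5000 UMIs, the median Spearman rho with the G2/M list was 0.0716 for FDPS (above 0 in 14 of 15 hashed samples, from -0.000334 to 0.347), -0.0250 for FDFT1 (6 of 15), -0.0106 for IDI1 (7 of 15) and -0.0610 for INSIG1 (3 of 15). These are weak correlations in sparse counts.

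SQLE, squalene epoxidase, carries out an oxygen-requiring step of sterol synthesis and is regarded as one of its rate-limiting enzymes. Its lowest values were 0.734 (0.655 to 0.819) in HTO2+HTO7, 0.802 (0.714 to 0.899) in HTO3+HTO6 and 0.821 (0.696 to 0.962) in HTO4+HTO6. HTO4+HTO10 at 1.04 and HTO4+HTO9 at 1.06 came next, followed by HTO2+HTO5 at 1.17, HTO3+HTO9 at 1.22, HTO3+HTO8 at 1.25, HTO4+HTO7 at 1.36 and HTO2+HTO6 at 1.39. The highest were HTO2+HTO8 at 1.43, HTO3+HTO5 at 1.46, HTO3+HTO7 at 1.49, HTO4+HTO8 at 1.65 and HTO2+HTO10 at 1.95 (1.76 to 2.17).

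The 3 lowest samples of SQLE could not be told apart by their intervals, and all 3 had IFN-gamma list levels over 260. HTO3+HTO9, at an IFN-gamma list level of 195, was near the median of SQLE, and HTO4+HTO10, at 7.90, was among its lowest 5, so the order of SQLE did not follow that list throughout. The ratio of 2.66 (2.29 to 3.11) rests on 317 and 363 counts, the most of any member. It was 2.26 without HTO2+HTO10, where the rule was still met. With at most 10% mitochondrial UMIs, which left 8 hashed samples, it was 2.06 and SQLE missed the rule. Both values lie below the interval given here. In cells thinned to 5000 UMIs, SQLE was detected in 30.7% of cells in HTO2+HTO7 and 52.9% in HTO2+HTO10, and without thinning in 54.2% and 74.1%.

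LSS, which folds squalene epoxide into lanosterol, and SREBF2, which encodes SREBP2, were sparse. LSS ran from 0.0215 (4 counts) in HTO4+HTO6 through a median of 0.0556 to 0.0916 (17 counts) in HTO2+HTO10, with a ratio of 4.27 (1.39 to 17.4). The LSS ratio was 2.77 without HTO4+HTO6 and 9.08 with at most 10% mitochondrial UMIs, and without HTO2+HTO10 the gene met the rule. SREBF2 ran from 0.0344 (2 counts) in HTO3+HTO5 through a median of 0.0644 to 0.139 (9 counts) in HTO3+HTO9, or 4.04-fold (exact interval 0.836 to 38.4). For SREBF2, a difference between its extreme samples was not detectable at this depth, and other pairs were not compared.

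INSIG1, the sterol-regulated anchor that retains SREBP2 with SCAP, had the widest range. It was lowest in HTO3+HTO8 at 0.0464 (0.0321 to 0.0649), HTO4+HTO10 at 0.0649, HTO2+HTO5 at 0.0774, HTO2+HTO6 at 0.0975 and HTO4+HTO7 at 0.101. The middle 5 were HTO2+HTO8 at 0.113, HTO3+HTO7 at 0.121, HTO4+HTO8 at 0.144, HTO3+HTO9 at 0.185 and HTO3+HTO6 at 0.199. The highest were HTO2+HTO10 at 0.199, HTO2+HTO7 at 0.241, HTO3+HTO5 at 0.309, HTO4+HTO6 at 0.322 (0.246 to 0.414) and HTO4+HTO9 at 0.334 (0.216 to 0.493).

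The ratio of INSIG1 was 7.20 (4.12 to 12.4), and 5.15 without HTO3+HTO8, the hashed sample of most cells. Each of the 5 hashed samples with IFN-gamma list levels of 195 to 295 held at least 0.185 of INSIG1, and 3 of them were among its highest 5. HTO3+HTO5, at an IFN-gamma list level of 8.09, stood as high as these. A TNF/NF-kB list of 18 genes stood at 58.2 to 103 in the highest 5 of INSIG1, but it was 90.7 in HTO3+HTO8, where INSIG1 was lowest. INSIG1 was detected in 2.04% of thinned cells in HTO3+HTO8 and 13.6% in HTO4+HTO9.

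A list of 10 stress genes, among them DDIT3, ATF4 and HSPA5, also differed between hashed samples. In the 5 samples highest in INSIG1 the stress list stood at 13.8 in HTO4+HTO6, 14.5 in HTO2+HTO7, 14.7 in HTO4+HTO9, 15.1 in HTO2+HTO10 and 19.2 in HTO3+HTO5. In the 5 lowest in INSIG1 it stood at 9.78 in HTO4+HTO7, 9.79 in HTO4+HTO10, 10.03 in HTO3+HTO8, 12.8 in HTO2+HTO5 and 14.3 in HTO2+HTO6, so these values overlapped. HTO3+HTO7 held 16.4 of the stress list and 0.121 of INSIG1. The list was 10.4 in HTO3+HTO6 and 18.5 in HTO3+HTO9, which did not differ in INSIG1 beyond their intervals. The part of these stress genes in the INSIG1 values was not tested.

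**Figure D2:**
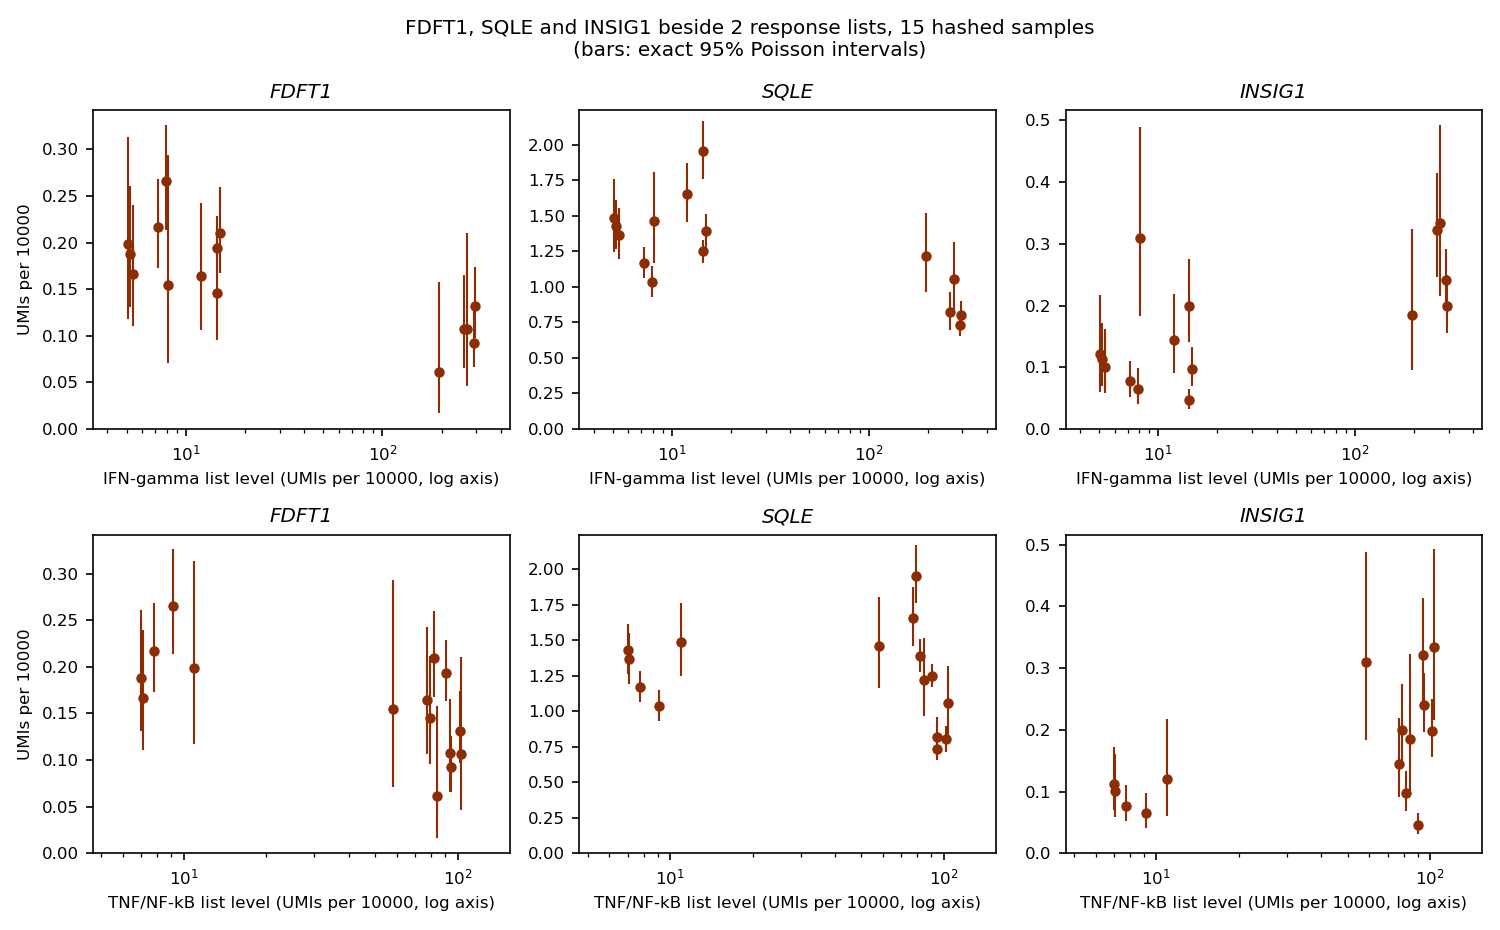
Levels of FDFT1, SQLE and INSIG1 (vertical axes, UMIs per 10000) against the summed level of the IFN-gamma response list (upper row) and the TNF/NF-kB response list (lower row; horizontal log axes, UMIs per 10000) in the 15 hashed samples, with exact 95% Poisson intervals as bars. The 5 hashed samples at IFN-gamma list levels of 195 to 295 hold the 5 lowest FDFT1 values, 0.0617 to 0.131, while INSIG1 in them is 0.185 to 0.334.

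Other enzymes of sterol synthesis also differed between hashed samples, and not all in the same order. Of 15 further enzymes, 13 passed the level and 7 met the 2-fold rule, among them MVD, TM7SF2, LBR, MSMO1, EBP and DHCR7, beside 29.5% of all tested genes. The median ratio of the 13 was 3.28. As a sum they ran from 3.54 in HTO4+HTO9 to 5.53 in HTO2+HTO8, a ratio of 1.56 (1.36 to 1.80).

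LBR, a sterol reductase that is also the lamin B receptor of the nuclear envelope, shared its lowest samples with FDFT1, though in another order. Its 5 lowest samples were HTO4+HTO6 at 0.198, HTO4+HTO9 at 0.227, HTO3+HTO6 at 0.260, HTO2+HTO7 at 0.282 and HTO3+HTO9 at 0.324, the same 5 as for FDFT1. Its 5 highest were HTO3+HTO7 at 0.705, HTO4+HTO7 at 0.842, HTO4+HTO10 at 0.891, HTO2+HTO8 at 0.949 and HTO2+HTO5 at 0.984, which had the lowest TNF/NF-kB list levels, at most 10.9. The ratio of highest to lowest LBR was 4.96 (3.53 to 7.15).

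MVD, the decarboxylase that makes isopentenyl diphosphate, was ordered the other way. Its 5 lowest samples were HTO3+HTO7 at 0.0992, HTO2+HTO5 at 0.108, HTO4+HTO10 at 0.136, HTO4+HTO7 at 0.136 and HTO2+HTO8 at 0.172. These are the 5 in which LBR was highest, and MVD was 0.252 to 0.387 in the other 10. MSMO1, a sterol methyl oxidase, was lowest at 0.0161 in HTO3+HTO6 and highest at 0.120 in HTO3+HTO5, on 6 and 7 counts. EBP, a sterol isomerase, ranged from 0.207 in HTO3+HTO6 to 0.499 in HTO2+HTO8, a ratio of 2.41 (1.77 to 3.31).

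Among the other genes that control SREBP processing, 1 of 5 met the rule, beside 29.5% of all tested genes. This was INSIG2, the sister anchor of INSIG1, at 0.166 in HTO4+HTO6 and 0.619 in HTO4+HTO10, a ratio of 3.72 (2.55 to 5.62). The order of these samples was opposite for INSIG1, at 0.322 and 0.0649. In HTO3+HTO8, where INSIG1 was lowest, INSIG2 stood at 0.543, while in HTO3+HTO6 INSIG1 and INSIG2 were 0.199 and 0.429. SCAP, the proteases MBTPS1 and MBTPS2, and SREBF1 did not meet the rule.

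None of 6 tested isoprenoid branch genes met the rule, beside the same 29.5%. Of 12 tested genes of sterol traffic and efflux, 4 did (STARD4, TMEM97, NR1H3 and APOE), near that share. STARD4, a carrier of cholesterol between membranes, ranged from 0.0771 in HTO4+HTO7 to 0.281 in HTO4+HTO9. These samples were also among the lower and the highest in INSIG1. TMEM97 ran the other way between them, from 0.0401 (3 counts) in HTO4+HTO9 to 0.202 in HTO4+HTO7. NR1H3 was lowest in HTO3+HTO9 and highest in HTO2+HTO5, and APOE lowest in HTO4+HTO6 and highest in HTO4+HTO10. CH25H, the enzyme of 25-hydroxycholesterol, was below the level for testing.

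Fatty acid synthesis, which the related factor SREBP1 drives, met the rule in 5 of 9 tested genes, beside 29.5% of all tested genes. ELOVL6, a fatty acid elongase, ranged from 0.0534 (4 counts) in HTO4+HTO9 to 0.469 in HTO4+HTO10, a ratio of 8.78 (3.36 to 32.6). FASN, fatty acid synthase, was lowest in HTO3+HTO9 at 0.123, HTO4+HTO6 at 0.150, HTO3+HTO6 at 0.153, HTO2+HTO7 at 0.187 and HTO4+HTO9 at 0.187, again the samples that were lowest in FDFT1. FASN was highest in HTO2+HTO5 at 0.385. The fatty acid list did not share this low end as a sum. It ran from 2.61 in HTO3+HTO5, which is not one of those samples, to 3.43 in HTO2+HTO5, a ratio of 1.31 (1.11 to 1.56).

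**Figure D3:**
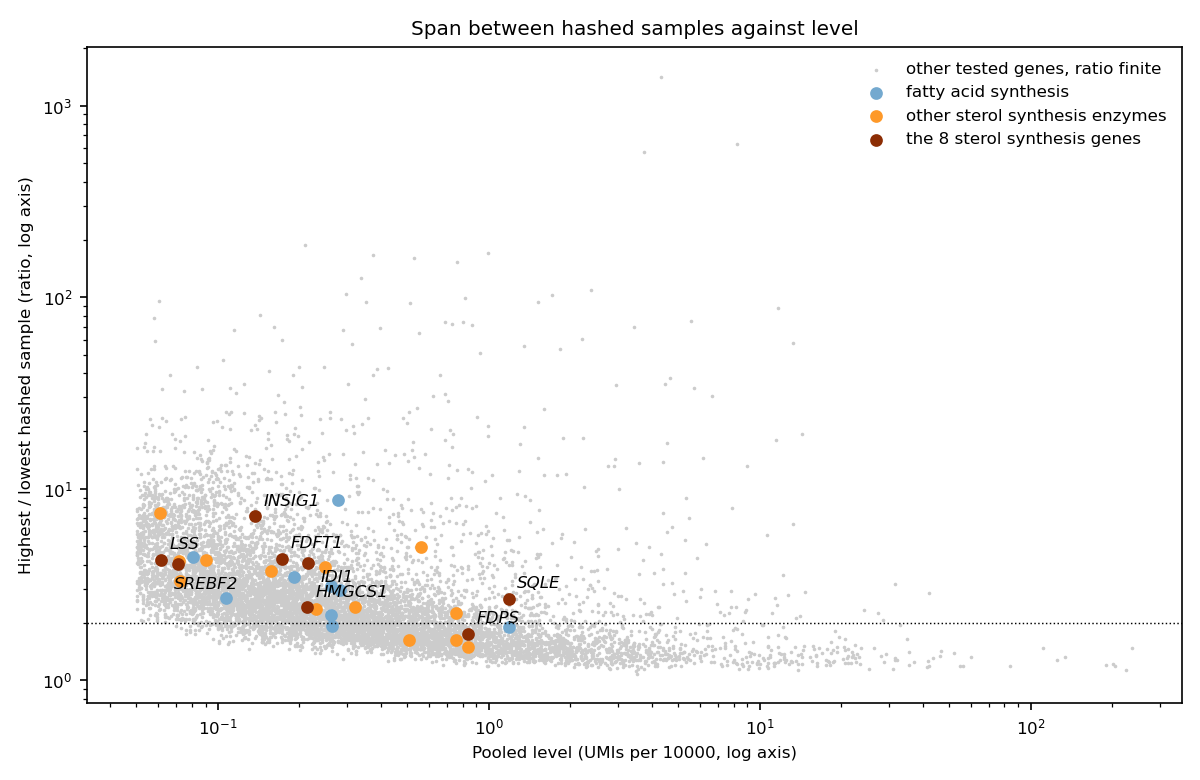
Ratio between the extreme hashed samples (vertical log axis, highest over lowest) against the pooled level (horizontal log axis, UMIs per 10000) for each gene with a pooled level of at least 0.05 and a count in every hashed sample; the 8 sterol synthesis genes are named, other sterol enzymes and fatty acid synthesis genes are coloured, and the dotted line marks a ratio of 2. Ratios widen towards low levels, and INSIG1 at 7.20 lies highest of the 8 while FDPS at 1.75 lies lowest.

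From cell to cell inside a hashed sample, the members did not vary together to a degree these sparse counts could show. After thinning to 5000 UMIs, which kept 2928 cells of the hashed samples and left out 216 shallower ones (4 to 41 per sample), at least 1 UMI of the 8 genes was found in 68.4% to 88.9% of cells. Without thinning it was found in 88% to 95.8%. The pool offers no cells known not to make sterols, and the contribution of free RNA to these shares was not tested. For the 28 pairs of members, the median over hashed samples of the Spearman rho lay between -0.0487 (FDFT1 and INSIG1) and 0.0472 (HMGCS1 and IDI1), and was above 0 for 6 pairs. Cells of 1 hashed sample share their library, so these are descriptions with no test. The median share of thinned cells with a UMI was 2.59% for LSS, 3.07% for SREBF2 and 7.14% for INSIG1. Correlations this weak in such sparse counts neither show nor exclude a relation.

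The sum of the 8 genes was as weakly related to other lists within hashed samples. Its median rho was 0.0261 with the other sterol enzymes (above 0 in 9 of 15 hashed samples), 0.00190 with the IFN-gamma list (8 of 15), 0.0252 with the TNF/NF-kB list (9 of 15) and 0.0485 with G2/M genes (11 of 15). With mitochondrial UMIs it was -0.0712, and with UMI depth before thinning 0.0615. INSIG1 taken alone had a median rho of 0.126 with the stress list, above 0 in 13 of 15 hashed samples. It is named because it was the largest median of any single member with any list. For the other members the median rho with the stress list ran from -0.0298 for FDPS to 0.0847 for SREBF2, with SQLE at -0.00512. Only the rho values of the sum were checked under other settings.

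**Figure D4:**
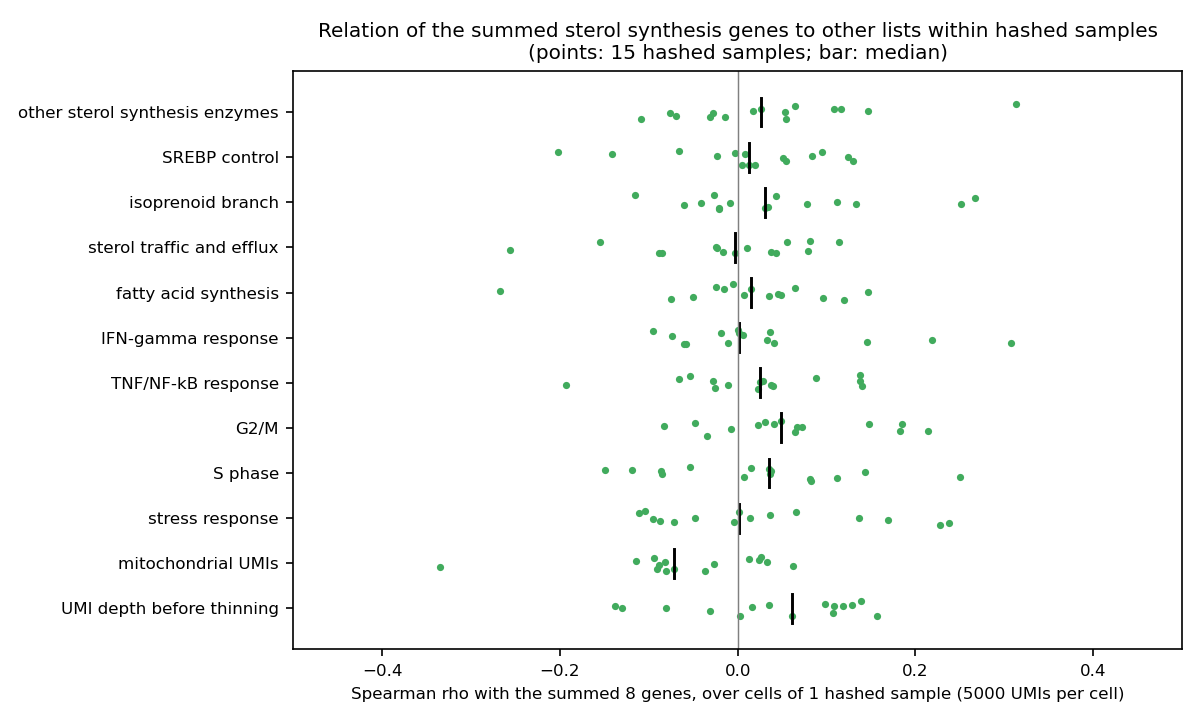
Spearman rho (horizontal axis) between the summed UMIs of the 8 genes and each list, mitochondrial UMIs or UMI depth (vertical axis), over cells thinned to 5000 UMIs, with 1 point per hashed sample and a bar at the median of the 15. All medians lie between -0.0712 and 0.0615, and the points of every list fall on both sides of 0.

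Of 2889 genes with a pooled level of at least 0.5, those most like the summed members within the 13 hashed samples of at least 50 thinned cells were PTBP3, SAP30BP, EGFR, GLRX, RNF216, XBP1, UACA, ATF4, METTL9 and HPCAL1. Their median rho ran from 0.0786 for HPCAL1 to 0.0988 for PTBP3, beside a median of 0.00617 over all genes ranked. None of the other sterol enzymes was among them, but those below that level were not ranked and could not be. The ranked ones ran from 784 for LBR to 2580 for TM7SF2, with CYP51A1, a lanosterol demethylase, at 1553. Across hashed samples, PTBP3 ranged from -0.00948 to 0.154 and was above 0 in 12 of 13, while EGFR ranged from -0.125 to 0.252 and was above 0 in 10 of 13. Correlations this weak in sparse counts are given as a description only.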

How the data were processed

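One pooled 10x Genomics 3' expression library and its hashtag library were read from 1 matrix of 36601 genes and 10 hashtags by 5269 barcodes. The authors deposited raw UMI counts, written by Cell Ranger 5.0.1 per the file headers. Cell Ranger 2.1.1 and GRCh38 stand in the submitters' processing notes. Barcode calling and the strand setting of the counting: not given in the sources used here. Row identifiers, feature types and barcode strings are other deposited fields with no measured values.

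Cells had at least 1000 genes and at most 20% mitochondrial UMIs. A hashtag pair was the top 2 hashtags where the second had at least 10 counts and 3 times the third, with at least 30 cells per pair. Of the 394 kept cells without a clear pair, 389 had at least 10 counts of the third hashtag, as droplets of several cells can; pairs of cells sharing the same hashtags went undetected. No barcode was listed 2 times. Treatment groups inferred from expression were not used, so no p-value was computed. Levels are counts per 10000 UMIs, with exact Poisson intervals for levels, exact conditional binomial intervals for ratios and exact binomial intervals for shares, all at 95%. The spanning rule was checked on simulated counts with Poisson error only. All 8 members and every gene of the lists that met the 2-fold rule could be named, with the 10 genes most alike; 1 gene of these lists is not reported here by name. The members and lists were chosen with earlier results of these data known. Alternatives changed the cell filter, pair rule, denominator, level filter, hashed samples used, cycling cells, weighting, thinning depth and correlation. Leaving out each hashed sample in turn was added after seeing the data. Python 3.11.15, numpy 2.4.6, scipy 1.17.1 and GENCODE 29 were used.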

Additional observations from a re-analysis of the deposited data

Results flagged for a closer look

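The sterol synthesis genes also had counts in barcodes that no value per hashed sample uses. In the 394 kept cells without a clear hashtag pair, the summed level of the 8 genes was 2.90 (95% interval 2.77 to 3.05), beside 2.90 in the 3144 with one. Among the 1731 barcodes that failed the cell filter it was 2.15 (2.06 to 2.24), with SQLE at 0.740 beside 1.18 in cells with a pair and FDFT1 at 0.103 beside 0.173. Both sums lie above the floor that 3 counts set, which is 0.00511 and 0.00310.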

How the results depend on the processing

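No paired analysis was possible because the result comes from no test and the hashed samples carry no replicate numbers. The ratio of the summed level was 1.38 and the number of spanning members was 1 under the 2-fold rule (beside 20.7% of all genes) and 0 under the 4-fold rule (beside 8.42%, with INSIG1 at a ratio of 4.92) with at most 10% mitochondrial UMIs, which left 8 hashed samples and 543 cells. The number under the 2-fold rule was 2 (SQLE and INSIG1) with no cell filter and 2 (the same genes) without cells with a UMI of MKI67 or TOP2A, both beside 29.1% of all genes, against 4 in the report. It was 5, with HMGCS1 added, where the second hashtag had at least 10 times the third (beside 29.6%). LSS gave no ratio without the MKI67 or TOP2A cells. Leaving out each hashed sample in turn gave ratios of the summed level from 1.45 (without HTO2+HTO10) to 1.64, 3 to 5 members under the 2-fold rule (3 without HTO3+HTO9, HTO4+HTO8 or HTO4+HTO10, and 5 without HTO2+HTO10) and 1 under the 4-fold rule. Without the 4 hashed samples of fewest cells, 3 members met the 2-fold rule beside 28.2% of all genes. INSIG1 met the 2-fold rule under every setting run. The median rho between members stayed within -0.0426 to -0.0236, and that with the other sterol enzymes was 0.000470 at 3000 UMIs, 0.0560 with at most 10% mitochondrial UMIs and -0.0106 without the cycling cells. The causes of these shifts were not tested. Depth limits LSS, SREBF2 and the 4 smallest hashed samples most, where 3 counts make a level of up to 0.0515.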

Other observations

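The summed levels of the response lists fell into separate clusters of hashed samples, to which the labels give no treatment. The IFN-gamma list was 195 in HTO3+HTO9, 261 in HTO4+HTO6, 271 in HTO4+HTO9, 291 in HTO2+HTO7 and 295 in HTO3+HTO6, and 5.08 to 14.9 in the other 10. The TNF/NF-kB list was lowest in HTO2+HTO8, followed by 7.08 in HTO4+HTO7, 7.77 in HTO2+HTO5, 9.13 in HTO4+HTO10 and 10.9 in HTO3+HTO7, and 58.2 to 103 in the other 10. The summed sterol synthesis genes stood in those 5 samples of low TNF/NF-kB list level at 2.99, 3.18, 2.90, 2.84 and 3.06. In the 5 samples of high IFN-gamma list level, in the order given above, they stood at 2.57, 2.49, 3.03, 2.43 and 2.46. In the remaining 5 they were 3.02 in HTO2+HTO6, 3.97 in HTO2+HTO10, 3.14 in HTO3+HTO5, 2.94 in HTO3+HTO8 and 3.51 in HTO4+HTO8. Because the samples are clustered, no correlation across them is given.
FABP4, a fatty acid carrier known from adipocytes, was at 1.36 in HTO3+HTO6 and 5.19 in HTO3+HTO5, while the adipocyte markers ADIPOQ and PLIN1 stayed below the level for testing.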
